A study of Mus musculus with 2 samples.

Results

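Epithelial to mesenchymal transition is the process by which cells held together in a sheet lose their contacts and take on a migratory, fibroblast-like form. Its state is usually read from adhesion molecules of the epithelial surface, Epcam and Cdh1 (E-cadherin), from Cdh2 (N-cadherin) and Vim (the intermediate filament vimentin) of mesenchymal cells, and from the transcription factors of the ZEB, SNAIL and TWIST families, which bind E-box sequences and are known to repress Cdh1 and other epithelial genes. Intermediate states, in which keratins are kept beside Vim, are well known in carcinoma. Here the 10 genes Epcam, Cdh1, Cdh2, Vim, Zeb1, Zeb2, Snai1, Snai2, Twist1 and Twist2 were found by symbol among 32285 genes of a scRNA-seq data set and described in the cancer cells and fibroblasts of prostate tumors.

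The tumors came from RM-1, a mouse prostate cancer (PCa) cell line, grown in the prostate of C57BL/6 mice. The control library came from the vehicle arm and the ENZ library from the arm given enzalutamide, an antagonist of the androgen receptor. Tail vein injection is the route the methods give for the treatment groups, with none stated for the mice sequenced. The methods name a pair of mice for sequencing, read here as 1 mouse per condition. The labels give both as WT and name no other allele or agent, and cells positive for the immune marker CD45 were enriched before loading, so that shares of cell types reflect that sort. The control library held 170830346 unique molecular identifiers (UMIs) and the ENZ library 162030149. With 1 library per condition no replicate spread could be measured, so no difference was tested, and every interval printed is a 95% interval for counting error alone.

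Cancer cells were barcodes with at least 8000 UMIs, at most 20% mitochondrial UMIs, at most 1 Ptprc UMI and at least 5 UMIs over Cacna2d1, Rbfox2, Kif21a and Rhox5. There were 3807 of them in control (median 21957 UMIs) and 4290 in ENZ (median 22693.5 UMIs), and 8 cancer-cell barcodes occurred in both libraries. Markers of epithelia and of fibroblasts were read beside their label. Krt8, a keratin of simple epithelia, was at 437 CPM (UMIs of a gene summed over cells and scaled to the summed depth) in control and 508 CPM in ENZ, and Krt18 and Krt19 were detected. The 4 epithelial markers, Epcam among them, summed to 942 and 1047 CPM. The 6 fibroblast markers summed to 896 and 863 CPM, and the collagen gene Col3a1 was at 522 and 520 CPM. The pan-leukocyte gene Ptprc was at 5.33 and 4.28 CPM, a level that the rule itself limits. Cancer cells were divided into 3 equal parts by the share of their UMIs in Krt8, Krt18 and Krt19, with limits of 0.0355% and 0.0952% set over both libraries. The keratin-low part held 1495 control and 1204 ENZ cells, and the keratin-high part 1079 and 1620. These parts are ranges of a continuous share, not cell types. Within 10% of the lower limit lay 223 control and 216 ENZ cells, and within 10% of the upper limit 266 and 362.

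Fibroblasts were barcodes with at least 1000 UMIs, at most 20% mitochondrial UMIs, at most 1 Ptprc UMI and at least 10 UMIs over Dcn, Lum and Dpt that did not meet the rule for cancer cells, and numbered 14 in control and 9 in ENZ. A further 69 control and 83 ENZ barcodes met both rules and were counted with the cancer cells. Of these, 48 and 65 lay in the keratin-low part. Rhox5, a homeobox gene of these tumor cells, was at 1046 and 907 CPM in cancer cells, and 34 and 56 of the barcodes that met both rules had at most 2 Rhox5 UMIs. A wider fibroblast group was therefore also formed from all barcodes that met the fibroblast rule with at most 2 Rhox5 UMIs, 48 in control and 65 in ENZ. In it Col1a1, a fibrillar collagen, was at 11752 and 12163 CPM and Pdgfra, a receptor of fibroblasts, at 204 and 219 CPM. Ptprc was at 4.68 and 5.64 CPM and Rhox5 at 17.5 and 31.4 CPM, levels that the rule itself limits. The keratin-based comparison was also run on 3388 control and 3798 ENZ cancer cells left after stromal barcodes were removed, those with at least 10 UMIs over Dcn, Lum and Dpt, at least 5 over the mural and endothelial markers Rgs5, Notch3, Pecam1 and Cdh5, or fewer than 3 of Rhox5. That removed 14.98% and 18.5% of the keratin-low part and 7.78% and 8.21% of the keratin-high part.

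Epcam was scarce in RM-1 cancer cells. Epcam codes for a cell surface adhesion molecule of epithelia and lies on mouse chromosome 17 (chr17:87635979-87651129, forward strand, GRCm38). It summed to 310 UMIs over the control cancer cells, a level of 3.09 CPM (2.76 to 3.46), and to 330 UMIs over the ENZ cells, 2.90 CPM (2.60 to 3.23). It was seen in few cells. After thinning to 8000 UMIs a cell, 1.71% of control cancer cells (1.32% to 2.17%) and 1.40% of ENZ cells (1.07% to 1.80%) held an Epcam UMI, and without thinning 6.23% and 6.06%. In macrophages, which should lack Epcam, 2 of 404 control cells (0.495%, 0.0600% to 1.78%) and 0 of 200 ENZ cells held one at the same depth, the latter allowing a share of up to 1.83% by the exact binomial interval. Macrophages had a median of 7242.5 and 6477.5 UMIs before thinning, and 582 and 446 shallower ones were left out. In both libraries the thinned share over all cancer cells lay within the macrophage interval, so at this depth it was not separated from background. The level in cancer cells was also above the 0.0883 and 0.132 CPM that free RNA could contribute at the highest free RNA share (4.23% and 3.41%) that barcodes of at most 100 UMIs allowed. Across the other classes, Epcam was at 10.7 CPM (18 UMIs) in control T cells and 12.3 CPM (29 UMIs) in ENZ T cells, and 0 UMIs were found in fibroblasts, endothelial cells or neutrophils of either library. The T cell level lay above that of cancer cells with intervals that did not overlap, and macrophages (0.396 and 0.219 CPM) lay below. B cells gave 1 and 4 UMIs.

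The Epcam promoter is shown because ZEB and SNAIL factors are known to bind the E-box CAGGTG and its reverse complement CACCTG, and Epcam is an epithelial member whose level differed with keratin content below. The 250 bases before its start (chr17:87635729-87635978, forward strand, GRCm38.p6, from the RefSeq table) hold the E-box at 187 and 19 bases before the start, in capitals here. Both strands were searched and no other motif. Of 32851 windows of that length in the table, 17.2% held the motif at least once. The window of Snai1, a SNAIL factor that itself holds 1 match at 126 bases before its start (chr2:167537945-167538194, forward strand), is given beside it. The windows of Vim, Zeb2, Twist1 and Twist2 held no match. Only 6 members had a window in the table, and Cdh1, Cdh2, Zeb1 and Snai2 had none, so they were not searched. A match is a description of the letters in the window and not a measured binding site.
Epcam: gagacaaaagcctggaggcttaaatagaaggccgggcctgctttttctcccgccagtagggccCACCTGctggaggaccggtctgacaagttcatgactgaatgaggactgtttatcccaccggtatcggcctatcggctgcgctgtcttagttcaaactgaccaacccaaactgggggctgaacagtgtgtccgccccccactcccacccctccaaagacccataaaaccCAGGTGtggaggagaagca
Snai1: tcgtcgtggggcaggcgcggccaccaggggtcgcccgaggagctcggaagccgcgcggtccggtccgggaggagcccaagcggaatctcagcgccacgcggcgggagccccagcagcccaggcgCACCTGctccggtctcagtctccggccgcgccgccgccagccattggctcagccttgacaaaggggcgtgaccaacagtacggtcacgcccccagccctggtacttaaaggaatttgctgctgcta

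Cdh1 was near the lower limit of detection in cancer cells. Cdh1 is the adherens junction cadherin of epithelia (chr8:106603351-106670246, forward strand). Its 74 control UMIs gave 0.738 CPM (0.580 to 0.927) and its 84 ENZ UMIs 0.739 CPM, against 0.221 and 0.292 CPM that free RNA could contribute. Thinned shares of cancer cells with a Cdh1 UMI were 0.499% and 0.350%. Other classes in the same tumors had more. Macrophages, some subsets of which are known to use E-cadherin, were at 19.0 and 23.4 CPM, T cells at 6.57 and 8.89 CPM and neutrophils at 7.47 and 4.30 CPM, while fibroblasts and endothelial cells gave 0 UMIs. The cancer cells were below macrophages, T cells and neutrophils in control with intervals that did not overlap, and the order of T cells and neutrophils was not separated by their intervals. The Cdh1 UMIs of cancer cells were unevenly spread. The 10 control cells with at least 2 Cdh1 UMIs held 32 of the 74, and the 10 ENZ cells held 40 of the 84. In those cells Epcam was at 0 UMIs in both libraries, which at their depth allows up to 10.7 and 9.21 CPM, Krt8 was at 435 and 367 CPM against 436 and 506 CPM in cells without Cdh1, and the antigen presentation gene Cd74 was at 406 and 172 CPM against 89.1 and 29.7 CPM. The macrophage marker C1qa went the other way, at 0 and 2.50 CPM (0 and 1 UMIs) against 10.95 and 6.50 CPM, with intervals that reached 10.7 and 13.9 CPM. H2-Aa, another antigen presentation gene, was at 95.7 and 67.4 CPM against 37.2 and 11.9 CPM, and the myeloid gene Lyz2 at 142 and 110 CPM against 51.5 and 20.9 CPM. The part of immune cell RNA in these Cdh1 UMIs was not tested.

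Cdh2 was the cadherin readily seen in cancer cells. Cdh2 (chr18:16588877-16809246, reverse strand) codes for the cadherin that joins mesenchymal and neural cells. It was at 60.8 CPM in control and 75.6 CPM in ENZ cancer cells, and 35.7% and 43.3% of thinned cells held a UMI. Up to 1.20 and 1.40 CPM of this could come from free RNA. Cdh2 in the wider fibroblast group was at the same level as in cancer cells in control (60.8 CPM) and lower in ENZ (29.0 CPM). It was at or below 5.74 CPM in macrophages, T cells and neutrophils of both libraries. At equal depth Cdh1 was seen in 19 control and 15 ENZ cancer cells, of which 4 and 7 also held Cdh2.

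Vim was present in nearly every cancer cell. Vim (chr2:13573927-13582826, forward strand) codes for the main intermediate filament of mesenchymal cells. It was at 2325 CPM in control and 2175 CPM in ENZ, and 99.8% and 99.98% of thinned cancer cells held a UMI. Up to 64.4 and 56.4 CPM of this could come from free RNA. All thinned cells with Epcam, 65 in control and 60 in ENZ, also held Vim. By class, Vim was high in fibroblasts, endothelial cells and cancer cells and lower in the leukocytes. The wider fibroblast group was at 3223 and 2341 CPM and endothelial cells at 2668 and 2480 CPM, whereas T cells were at 576 and 708 CPM, macrophages at 645 CPM in both and neutrophils at 336 and 489 CPM. In ENZ the intervals of fibroblasts and endothelial cells overlapped.

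Both ZEB factors were detected in most cancer cells. Zeb1 (chr18:5591860-5775467, forward strand) and Zeb2 (chr2:44983632-45117395, reverse strand) code for zinc finger proteins that repress epithelial genes. Zeb1 was at 232 CPM in control and 285 CPM in ENZ, with a UMI in 75.2% and 82.1% of thinned cells. Zeb2 was at 204 and 244 CPM, with a UMI in 73.5% and 80.7%. Free RNA could contribute up to 6.60 and 7.08 CPM of Zeb1 and 13.4 and 12.5 CPM of Zeb2. Zeb1 and Zeb2 occurred together in 56.9% of control and 67.1% of ENZ cancer cells at 8000 UMIs. The product of their separate shares was slightly lower, at 55.3% and 66.2%. In control a Zeb2 UMI was seen in 75.6% of cells with Zeb1 and 67.2% of cells without. In ENZ these shares were 81.7% and 75.8%. Their class patterns differed from each other. Zeb1 was highest in T cells (734 and 758 CPM) and endothelial cells (666 and 846 CPM), which its intervals did not separate, and lowest in macrophages (56.4 and 43.1 CPM). Zeb2 was highest in macrophages (1250 and 1916 CPM), then neutrophils (1097 and 1467 CPM), and lowest in T cells (135 and 169 CPM). Cancer cells lay between these ends for both genes.

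Twist1 and Twist2 were higher in cancer cells than in macrophages, T cells or neutrophils of the same library, Snai2 had at most 1 UMI in each of those classes, and Snai1 was also seen in neutrophils. Snai1 (chr2:167538195-167542814, forward strand) codes for a zinc finger repressor of Cdh1. It was at 26.3 CPM in control and 18.8 CPM in ENZ cancer cells, 37.4 and 63.7 CPM in the wider fibroblast group and 16.8 and 31.5 CPM in neutrophils. Snai2 (chr16:14705852-14709385, forward strand), its paralog, was at 4.40 and 5.24 CPM in cancer cells and 22.2 and 24.98 CPM in the wider fibroblast group. A Snai1 UMI was seen in 17.5% and 14.4% of thinned cancer cells and a Snai2 UMI in 3.73% and 4.73%. Free RNA could contribute up to 0.861 and 0.574 CPM of Snai1 and 0.0552 and 0.150 CPM of Snai2. Twist1 (chr12:33957671-33959829, forward strand) and Twist2 (chr1:91801461-91848028, forward strand) code for basic helix-loop-helix factors of mesoderm. Twist1 was at 74.8 and 76.8 CPM in cancer cells and 113 and 94.3 CPM in the wider fibroblast group. Twist2 was at 101 and 90.1 CPM in cancer cells and 43.3 and 58.0 CPM in the wider fibroblast group. In macrophages Twist1 was at 1.85 and 4.15 CPM and Twist2 at 2.11 and 4.15 CPM. Twist1 and Twist2 were both seen in 21.6% of control and 20.2% of ENZ cancer cells at 8000 UMIs, where the product of their shares was 21.5% and 20.7%.

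**Figure D1:**
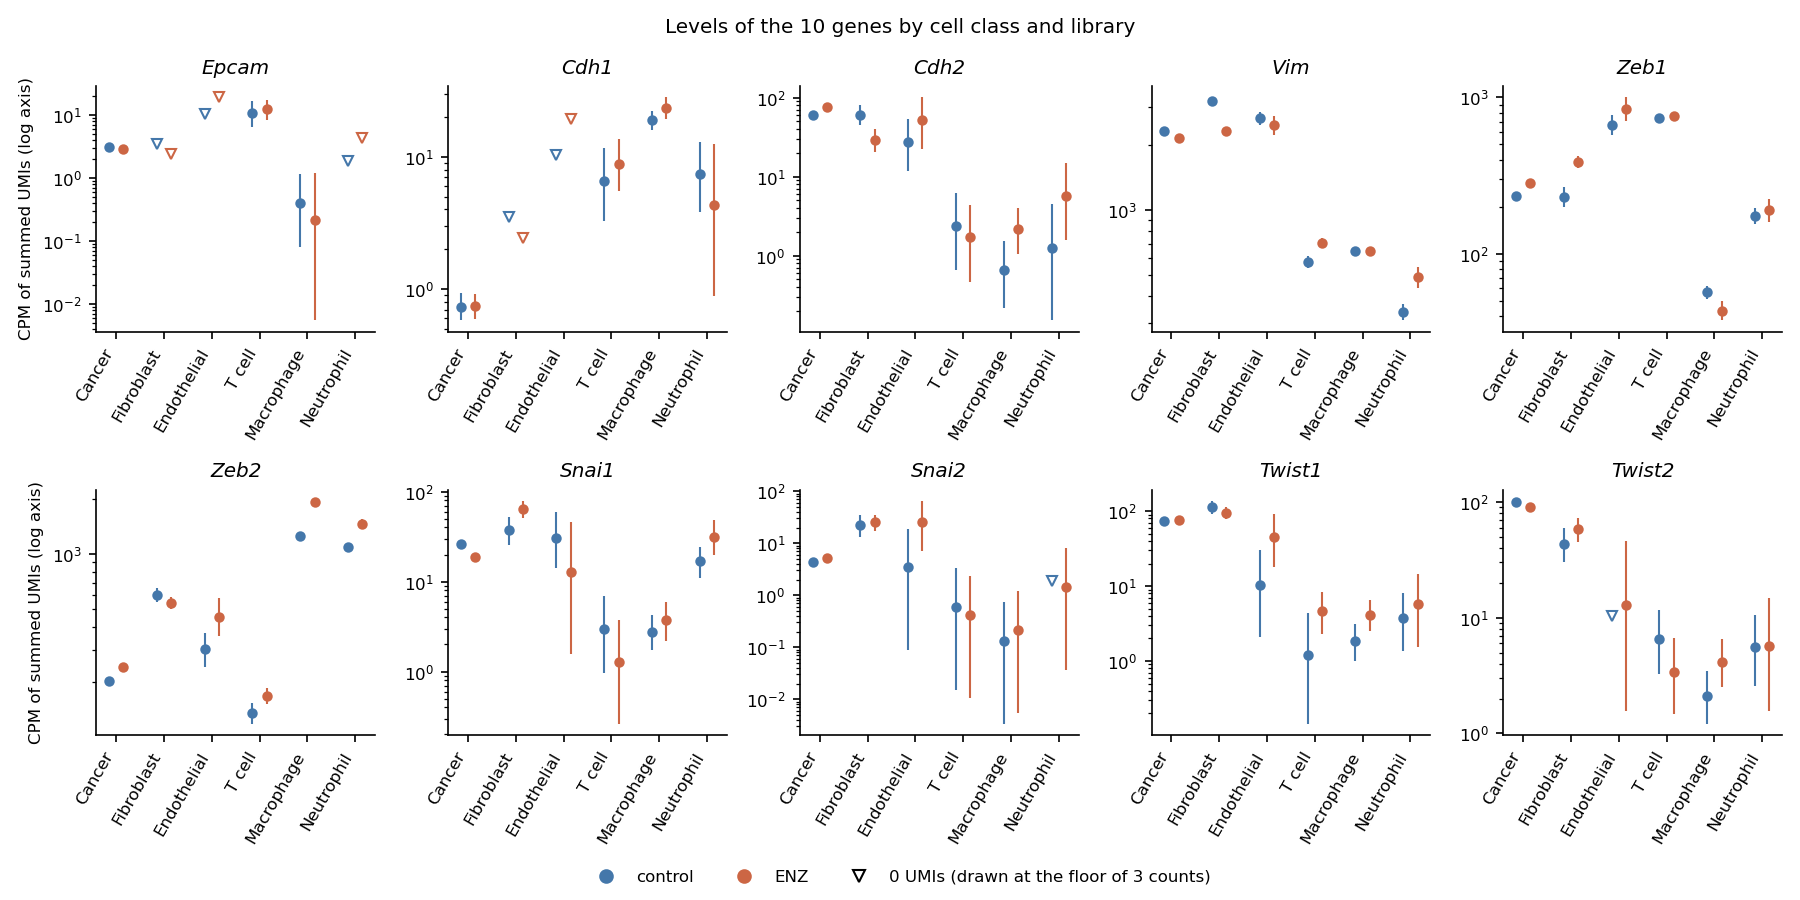
Level of each gene (CPM of summed UMIs, log axis, 1 panel a gene with its own scale) in 6 cell classes of the control (blue) and ENZ (orange) libraries, with 95% Poisson intervals for counting error; fibroblasts are the wider group with at most 2 Rhox5 UMIs, and open triangles mark 0 UMIs, drawn at the floor of 3 counts. Vim, Cdh2, Twist1 and Twist2 were higher in cancer cells than in T cells, macrophages or neutrophils, while Cdh1 and Epcam were higher in T cells than in cancer cells.

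The first comparison asked how the 10 genes varied with the keratin content of cancer cells. A ratio of CPM of at least 1.5 or at most 1/1.5 was counted as past the fold where the groups together held at least 50 UMIs. Between the keratin-low and the keratin-high part, 4 of the 10 genes were past the fold in both libraries, where 19.4% of 14073 genes were. Zeb2 and Snai2 were higher in keratin-low cells, as were 14.3% of genes, and Epcam and Vim were lower, as were 5.09%. Epcam met the limit of 50 UMIs through its keratin-high cells alone, so its place in this count is a description and supports nothing. The other 6 genes did not pass in both libraries. Keratins themselves set the parts and are no finding.

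Epcam followed the keratins. It was at 0.646 CPM (19 UMIs) in keratin-low and 5.77 CPM (214 UMIs) in keratin-high control cells, a ratio of 0.112. In ENZ it was at 0.926 CPM (21 UMIs) and 4.40 CPM (234 UMIs), a ratio of 0.210. At equal depth 0.268%, 1.14% and 3.15% of control cells of the low, middle and high parts held an Epcam UMI, and 0.332%, 1.43% and 3.02% of ENZ cells. The share in the keratin-high part, with intervals of 2.19% to 4.38% in control and 2.25% to 3.98% in ENZ, lay above the macrophage intervals. In control the share in the keratin-low part was below the 0.495% of macrophages and reads as background, so the ratios give a direction and no firm size. The control ratio ran from 0.0421 without dividing cells to 0.187 with only the cells of high UMI totals, and the ENZ ratio from 0.126 between the ends of the keratin order to 0.262 with cells matched on UMIs.

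Vim followed the keratins as well, in the direction of Epcam. It was at 1823 CPM in keratin-low and 2811 CPM in keratin-high control cells, a ratio of 0.649 (0.642 to 0.656). In ENZ it was at 1649 and 2492 CPM, a ratio of 0.662 (0.654 to 0.669). In both libraries the cells with most keratin thus held most vimentin RNA. Over single cells thinned to 8000 UMIs, the rank correlation of Vim with the keratin share was 0.463 over 3807 control cells and 0.435 over 4290 ENZ cells, as a description of cells that share a library.

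Zeb2 went against the keratins. It was at 296 CPM in keratin-low and 136 CPM in keratin-high control cells, a ratio of 2.18 (2.101 to 2.25). In ENZ it was at 373 and 181 CPM, a ratio of 2.06 (2.002 to 2.12). The share of thinned cells with a Zeb2 UMI was 82.5%, 73.6% and 59.96% over the low, middle and high parts of control and 90.1%, 82.5% and 71.0% in ENZ. Zeb2 thus remained detected in most keratin-high cells. Its rank correlation with the keratin share over single cells was -0.302 and -0.312. Snai2 had the same direction at far fewer counts. It was at 6.15 and 3.02 CPM in the low and high parts of control, a ratio of 2.04 (1.60 to 2.60), and at 9.08 and 3.76 CPM in ENZ, a ratio of 2.41 (1.98 to 2.95).

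The other members differed less. Zeb1 had low-over-high ratios of 1.37 in control and 1.21 in ENZ, Snai1 1.38 and 1.49, Twist1 1.34 and 1.31, Twist2 1.17 and 1.21, and Cdh2 1.36 and 1.13. Cdh1, with 25 against 27 UMIs in control and 30 against 34 in ENZ, had ratios of 1.17 (0.650 to 2.09) and 2.07 (1.22 to 3.48), so it passed the fold in ENZ alone, on the keratin-low side, where 17.6% of genes in ENZ and 22.2% in control passed. A single ENZ keratin-low cell held 12 of the 30 UMIs, and without it the ENZ ratio was 1.24 (0.661 to 2.26), no longer past the fold. After thinning it was 1.35 in the run of alternatives. In the thinned shares it went the other way, with a UMI in 0.415% of keratin-low and 0.432% of keratin-high ENZ cells. At this depth Cdh1 thus had no stable direction in ENZ. By summed UMIs, every tested member except Epcam and Vim was on the keratin-low side in both libraries, with that limit for Cdh1. Under a marker filter for doublets, which left few cells, Cdh2 (0.864) and Twist2 (0.933) turned to the keratin-high side in ENZ. The median log2 ratio of the members was 0.38, against 0.13 for all genes and 0.48 for 1931 genes that span at least 100 kb, of which 643 were higher and 65 lower in keratin-low cells. Cdh2, Zeb1 and Zeb2 are themselves such genes, spanning 220.4, 183.6 and 133.8 kb. Scaling by the median of gene ratios in place of totals shifted log2 ratios by 0.15 in control and 0.08 in ENZ.

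**Figure D2:**
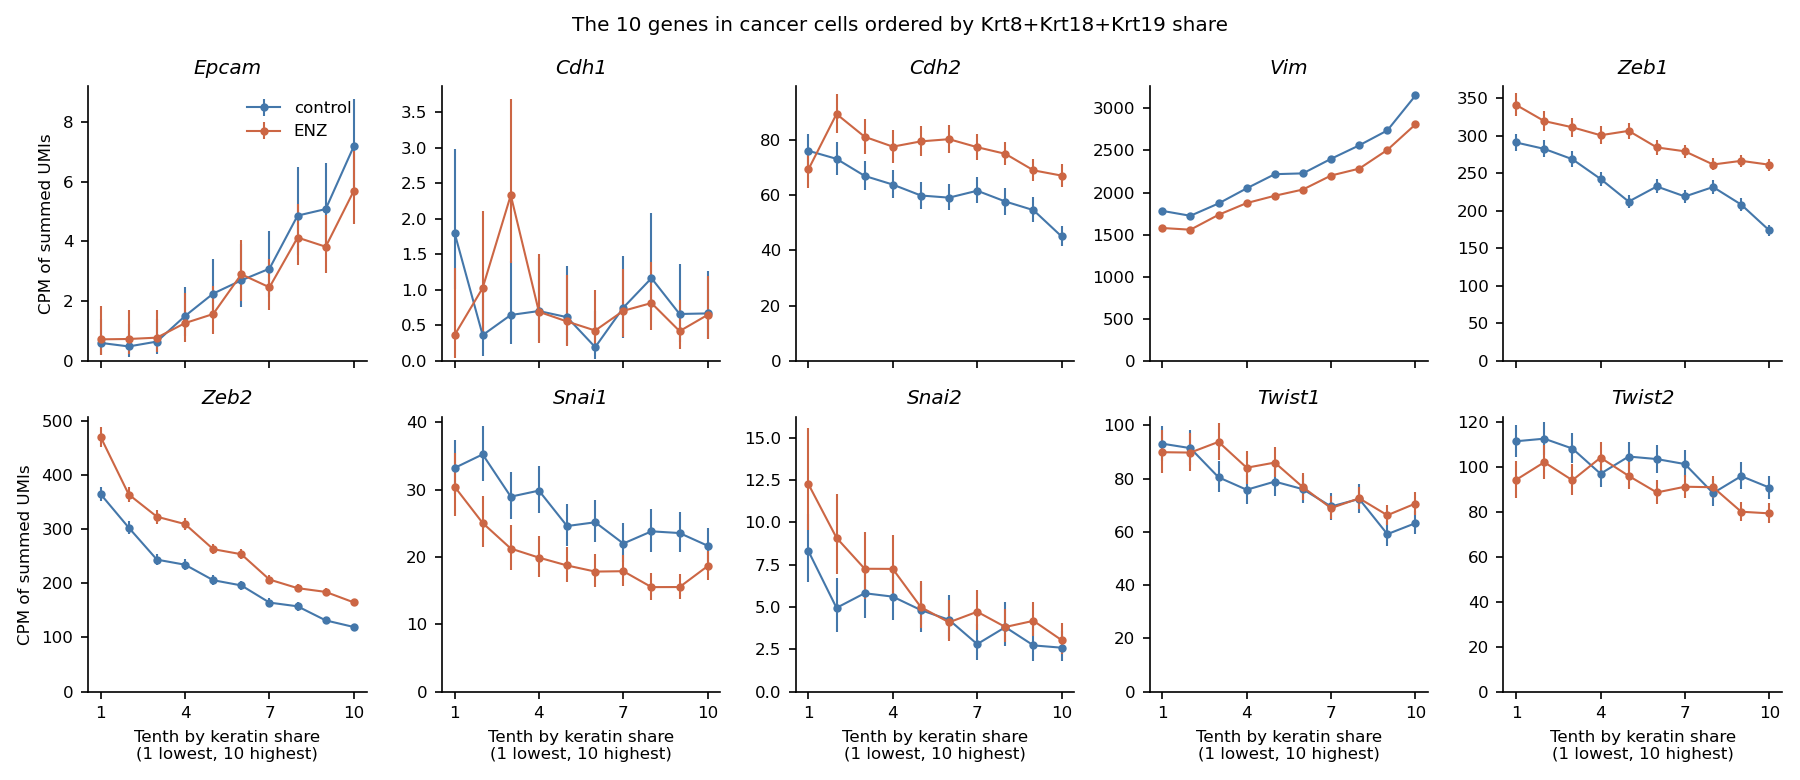
Level of the members (CPM of summed UMIs) in 10 equal parts of the cancer cells of both libraries ordered by keratin share, from lowest to highest, in control (blue) and ENZ (orange), with 95% Poisson intervals. Epcam was at 0.602 and 7.195 CPM in the lowest and the highest part of control and 0.721 and 5.70 CPM in ENZ, Vim at 1782 and 3152 CPM and at 1578 and 2809 CPM, and Zeb2 at 364 and 119 CPM and at 470 and 165 CPM.

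At the ends of the keratin order, in 10 equal parts, every member had the direction given above except Cdh1 in ENZ, with 0.360 CPM (2 UMIs) in the lowest and 0.648 CPM (10 UMIs) in the highest. Snai2 was at 8.30 CPM in the lowest and 2.60 CPM in the highest of the 10 in control, and at 12.3 and 3.04 CPM in ENZ. Zeb1 was at 291 and 174 CPM in control and at 341 and 261 CPM in ENZ. Twist1 was at 93.1 and 63.3 CPM in control and 89.9 and 70.6 CPM in ENZ. None of the 6 transcription factors was at 0 in any of the 10 parts. Cdh2 had a smaller difference in ENZ, with 76.2 and 45.1 CPM at the ends in control and 69.4 and 67.1 CPM in ENZ. The ENZ intervals at the ends overlapped (62.6 to 76.7 and 63.1 to 71.4 CPM). Its highest ENZ level, 89.5 CPM, was in the part next to the lowest, so Cdh2 had no steady order there.

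Other features of the cells moved with the keratin parts. The median depth was 16657 UMIs in the keratin-low and 29093 in the keratin-high part of control, and 16430 and 28291.5 in ENZ. Genes that span at least 100 kb took 13.0% and 8.84% of UMIs in control and 14.6% and 10.6% in ENZ, and the nuclear RNA Malat1 was at 12563 and 6990 CPM in control and 14401 and 9367 CPM in ENZ. Cells with at least 2 UMIs of division markers made up 39.1% and 56.2% of control and 32.1% and 51.8% of ENZ cells. The 6 fibroblast markers, all detected and led by Col3a1, summed to 1815 and 353 CPM in control and 2450 and 360 CPM in ENZ. The 4 mural markers, led by Rgs5, summed to 90.1 and 11.7 CPM in control and 104 and 9.86 CPM in ENZ. The 4 endothelial markers, led by Cdh5, summed to 63.9 and 29.2 CPM and to 67.02 and 33.2 CPM, and the 5 macrophage markers, led by C1q genes, to 48.7 and 29.3 CPM and to 26.1 and 18.6 CPM. Markers of these 3 types were thus higher in keratin-low cells as well, and none was at 0. Neutrophil markers, led by S100a9, went opposite ways, with 65.1 and 98.7 CPM in control and 34.8 and 25.3 CPM in ENZ. With stromal barcodes removed the same 4 genes passed (15% of 13428 genes passed there, 10.2% higher and 4.84% lower), with Epcam again lower, Vim at ratios of 0.633 and 0.659, Zeb2 at 2.01 and 1.92, and Snai2 at 1.75 and 1.97. With cells matched on total UMIs Vim was at 0.705 and 0.690, no longer past the fold, while Epcam, again lower, Zeb2 (1.80 and 1.73) and Snai2 (1.96 and 2.16) passed, against 13.6% of 12592 genes, 10.8% higher and 2.76% lower. Without dividing cells, Zeb2 was at 2.19 and 1.9996, Snai2 at 2.09 and 2.35, Vim at 0.618 and 0.628 and Snai1 at 1.56 and 1.57. Epcam was again lower. No share of all genes is printed for that run, so these ratios are descriptions. In the few cells with no Ptprc UMI and at most 1 UMI in the markers of each other cell type, Zeb2 was at 2.75 and 1.74. The part of nuclear RNA in the ratios was not tested.

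**Figure D3:**
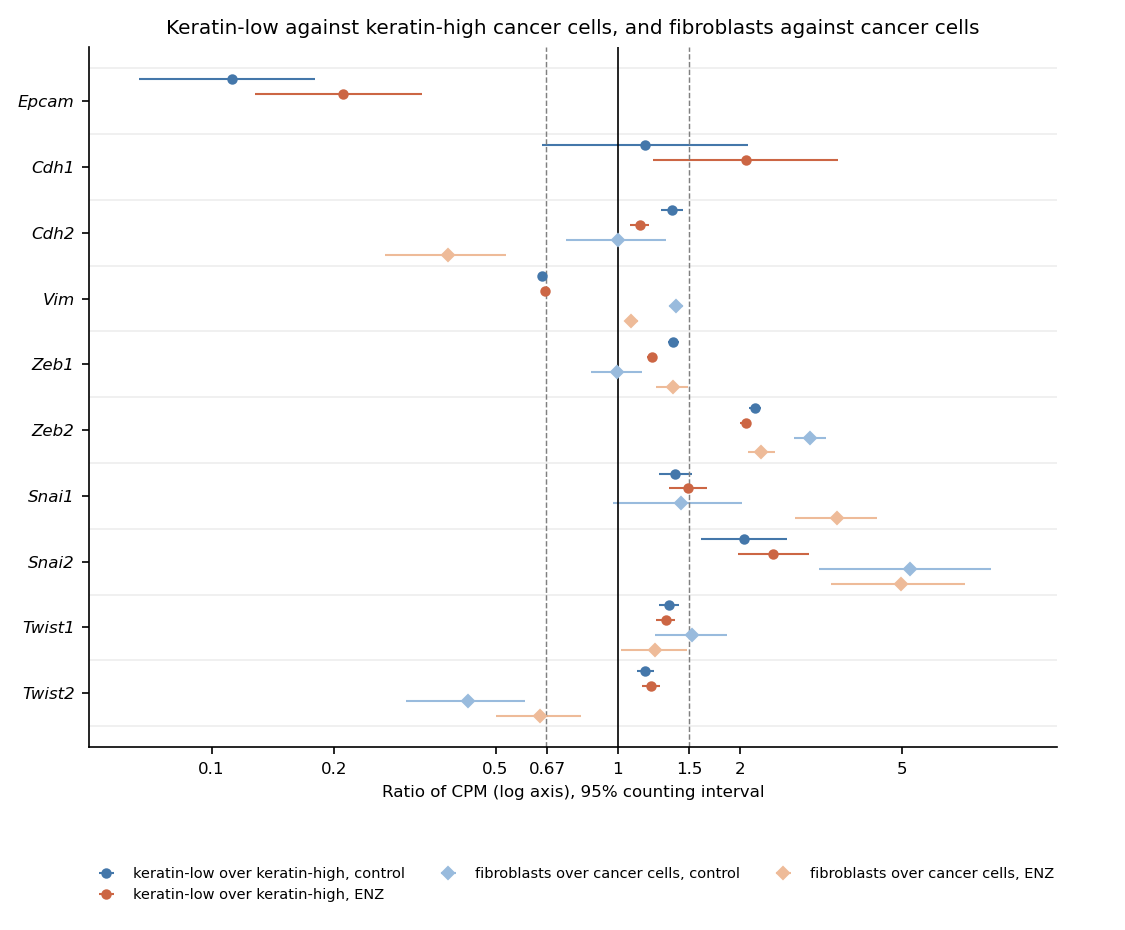
Ratio of CPM (log axis) of each gene in the keratin-low over the keratin-high part of cancer cells (circles) and in the wider fibroblast group over cancer cells (diamonds), in control and ENZ, with exact 95% counting intervals; dashed lines mark 1.5-fold, and points with under 10 UMIs or with 0 UMIs in a group are left out. Epcam and Vim lie on the keratin-high side, and Zeb2 and Snai2 on the keratin-low and the fibroblast side.

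Cells with the most Epcam were looked at on their own. In the keratin-high part, 41 control and 37 ENZ cells held at least 2 Epcam UMIs. They were deeper than other cells, with medians of 49646 and 51238 UMIs. Vim was at 2810 and 2527 CPM in them, against 2811 and 2476 CPM in keratin-high cells without Epcam. Zeb1 was at 161 and 169 CPM against 212 and 271 CPM, and Zeb2 at 106 and 116 CPM against 144 and 187 CPM. Krt8 was at 1016 and 882 CPM against 810 and 794 CPM. In the cells with at least 2 Epcam UMIs Vim was thus about level, and both ZEB genes were lower but still detected. Of other epithelial genes, Cdh1 gave 0 CPM in control and 1.48 CPM (3 UMIs) in ENZ, against 0.810 and 0.661 CPM. The tight junction claudins Cldn3 and Cldn4 gave 0 UMIs in both libraries and Cldn7 0 and 1. In keratin-high cells without Epcam, Cldn3 also gave 0 UMIs, Cldn4 5 and 2 and Cldn7 4 and 4. A count of 0 in the cells with Epcam allowed up to 1.58 and 1.82 CPM, above the 0.169 and 0.0440 CPM of Cldn4 in cells without it, so no difference was detectable at this depth.

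The 5 gene lists of related function were read over the same keratin comparison. Of 36 epithelial genes only 13 had counts enough in both libraries, and of those 0 were higher and 7 lower in keratin-low cells, beside 14.3% and 5.09% of all genes tested. Those with the most UMIs were Klf5, a zinc finger factor of epithelia, at ratios of 0.401 and 0.429, the desmosome plaque gene Pkp2 at 0.374 and 0.541, the cornified envelope gene Ppl at 0.554 and 0.569, and the protease inhibitor Spint1 at 0.622 and 0.659. The other 3 were Grhl2, Elf3 and Pkp3, chosen after their values were seen, which had under 50 UMIs in the keratin-low cells of at least 1 library and met the limit through the keratin-high cells there. Of the 4 genes with the most UMIs, Klf5 and Pkp2 passed without stromal barcodes, and Ppl and Spint1 did not.

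Mesenchymal genes were mostly on the other side, and here the stromal barcodes mattered. Of 36 genes tested, 28 were higher and 2 lower in keratin-low cells (14.3% and 5.09% of all genes). Of the 28, Cdh11, Lox, Lum, Postn, Tagln, Thy1 and Col5a2 had under 50 UMIs in the keratin-high cells of at least 1 library and met the limit through the keratin-low cells there, so the count is a description. Examples with more UMIs were the matrix glycoprotein Sparc at 2.35 and 2.96, Col3a1 at 3.87 and 4.50, fibronectin Fn1 at 3.18 and 3.76 and Col1a1 at 9.24 and 18.1. Without stromal barcodes 31 could be tested, of which 17 were higher and 2 lower (10.2% and 4.84% of all genes). Lgals1, a galectin, and the calcium-binding S100a4 were the 2 lower genes in both runs. In all cancer cells they had ratios of 0.585 and 0.582 (Lgals1) and 0.527 and 0.415 (S100a4). They were thus on the side of Vim, and not of the collagens.

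TGF-beta signaling is a known inducer of SNAIL and ZEB genes. Of its 21 listed genes 12 were higher and 0 lower in keratin-low cells, and 9 and 0 without stromal barcodes, beside the same shares of all genes. Id3 (2.12 and 2.02), the pathway inhibitor Smad7 (1.81 and 1.83), the coreceptor Tgfbr3 (2.30 and 2.17) and the repressor Ski (1.76 and 1.74) had the most UMIs. The activity of the pathway was not tested. With cells matched on total UMIs 9 were higher and 0 lower, beside 10.8% and 2.76% of all genes, and Id3, Smad7 and Ltbp3 no longer passed. Of 9 other cadherins and catenins tested, Cdh6 (5.85 and 4.54) and Cdh11 were higher and 0 were lower, Cdh11 having only 15 and 18 UMIs in keratin-high cells. Without stromal barcodes Cdh6 was higher and Cdh13 lower of 8, and Cdh11 did not pass. Of 21 partners of the transcription factors, 5 were higher and 1 lower. Over all genes 14.3% were higher and 5.09% lower, and these last 2 counts are too small to stand apart from that. Tcf4, a helix-loop-helix partner of TWIST proteins that also binds E-boxes, was at 2.15 and 1.93, with Runx2, Prrx1, Lats2 and Foxc2 also higher, and the AP-1 member Fosl1 was lower at 0.501 and 0.506. Foxc2 did not pass without stromal barcodes, and Runx2 and Lats2 did not with cells matched on UMIs.

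**Figure D4:**
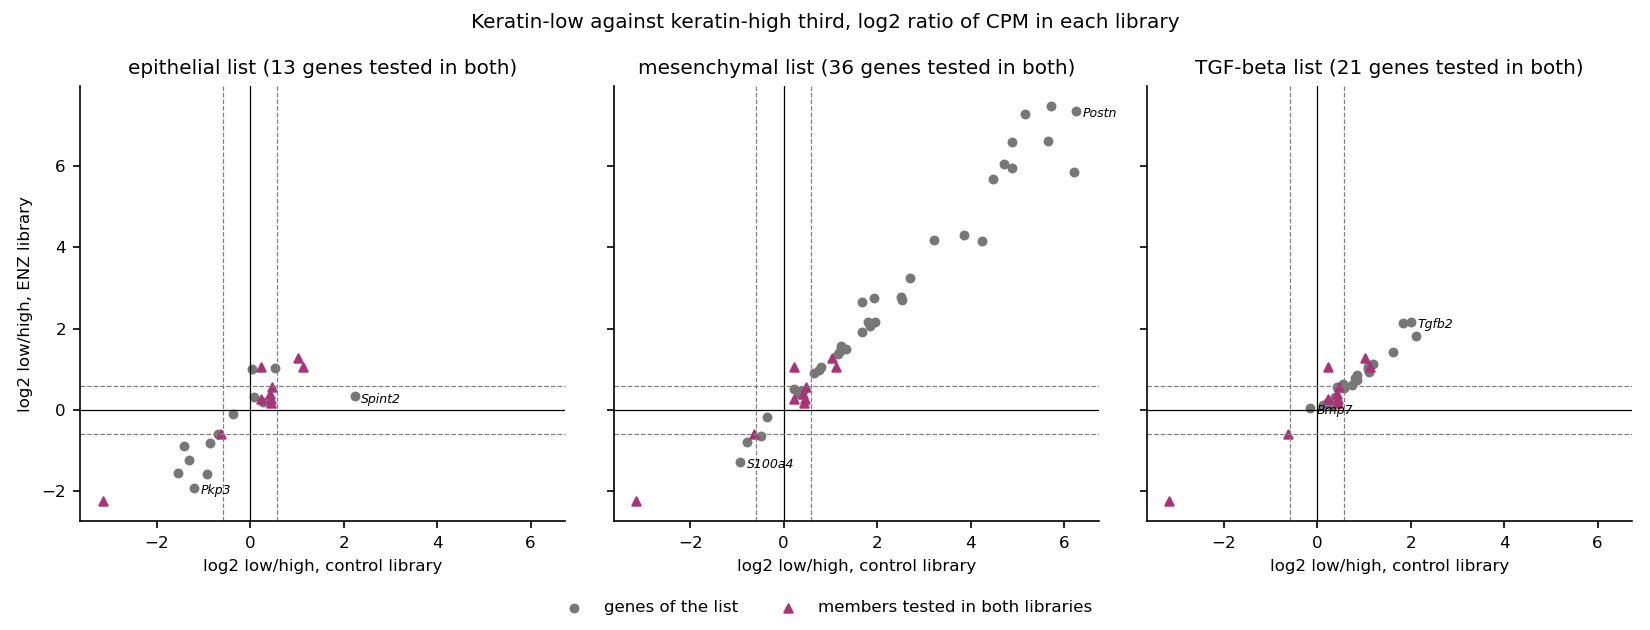
Each point is a gene of the epithelial, mesenchymal or TGF-beta list (grey) or a member (purple triangles) tested in both libraries, at its log2 ratio of keratin-low over keratin-high cancer cells in control (x axis) and ENZ (y axis); dashed lines mark 1.5-fold, and the lowest and highest gene of each list is named. Most mesenchymal genes lie at the upper right, 7 epithelial genes at the lower left, and the members between, with Epcam at the far lower left.

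The second comparison asked whether the 10 genes differed between the ENZ and the control tumor. In cancer cells 0 of the 10 passed 1.5-fold, against 7.61% of 16821 genes, 2.15% higher in ENZ and 5.46% lower. The adhesion genes were close. Epcam had an ENZ over control ratio of 0.939 (0.801 to 1.10) and Cdh1 of 1.001 (0.723 to 1.39). Cdh2 was at 1.24 (1.20 to 1.29). Vim was at 0.935 (0.930 to 0.941).

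Among the transcription factors, both ZEB genes were on the ENZ side and Snai1 on the control side. Zeb1 had a ratio of 1.23 (1.21 to 1.249) and Zeb2 of 1.20 (1.17 to 1.22). Snai1 was at 0.715 (0.675 to 0.757), or 1.40-fold lower in ENZ, farther from 1 than any other member. Its paralog Snai2 was at 1.19 (1.05 to 1.35). Twist1 was at 1.03 (0.995 to 1.06) and Twist2 at 0.895 (0.871 to 0.920). These intervals leave out differences between animals, sorts and library preparations, which 1 library per condition cannot tell apart from the treatment. Cdh2, Zeb1 and Zeb2 span at least 100 kb, and genes of that span took 10.7% of cancer-cell UMIs in control and 11.9% in ENZ. Malat1 was at 9159 and 10798 CPM. The median log2 ratio of 2234 such genes was 0.06, against -0.003 for all genes. Zeb2 was also higher in ENZ in macrophages, T cells and neutrophils, but not in the wider fibroblast group. The part of long genes and nuclear RNA in these ratios was not tested.

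The libraries differed in keratin composition, so the ratios were also taken within each part. Cdh2 was at 1.11, 1.33 and 1.34 in the low, middle and high parts, Zeb1 at 1.15, 1.31 and 1.30 and Zeb2 at 1.26, 1.28 and 1.33. Snai1 was at 0.780, 0.723 and 0.726, and Vim at 0.905, 0.917 and 0.887. The direction of these 5 genes was the same in the 3 parts. Of the members, Cdh1 alone passed the fold in any part, at 1.56 (0.885 to 2.76) in keratin-low cells with 30 and 25 UMIs, where 8.01% of 14077 genes passed. Without the ENZ cell that held 12 of those UMIs the ratio was 0.935 (0.481 to 1.78), on the other side of 1. The background in the middle and high parts was 7.32% and 7.14%. Epcam had a ratio of 0.764 (0.632 to 0.923) in the keratin-high part, where its level allowed a comparison. At equal depth the shares of cells with an Epcam UMI in that part, given above, were close. Over all cancer cells the Epcam ratio turned to 1.21 after thinning. Keratins in the keratin-high part summed to 1830 CPM in control and 1699 CPM in ENZ, so the Epcam ratio has no firm direction.

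Over all cancer cells, the lists were read between ENZ and control beside the 2.15% of all genes that were higher and the 5.46% that were lower. Of 21 epithelial genes tested, Grhl1 was higher and Spint2 lower. Of 36 mesenchymal genes, 0 were higher, and S100a4 and the contractile genes Acta2 and Tagln were lower. Of 21 TGF-beta genes 0 passed. Of 13 cadherins and catenins Cdh4 was higher and Cdh15 lower, and of 21 partners Foxc2 was higher. These counts are too small to stand apart from the share of all genes. Within the keratin parts the mesenchymal list went different ways. In keratin-low cells 6 of 36 were higher in ENZ and 2 lower, where 3.37% and 4.63% of genes were. In the middle part 1 of 35 was higher and 11 lower (2.46% and 4.86% of genes), and in the keratin-high part 0 of 32 were higher and 7 lower (2.92% and 4.22%). The collagen gene Col1a2, chosen after its values were seen, had ratios of 1.65, 0.0866 and 0.377 in the low, middle and high parts. The 6 fibroblast markers summed to 1815 CPM in control and 2450 CPM in ENZ in the low part, 692 and 617 CPM in the middle part and 353 and 360 CPM in the high part, and their part in these counts was not tested. Over all cancer cells without stromal barcodes 1 of 36, Vcan, was higher and 7 lower, where 2.02% and 5.77% of genes were (7.79% either way), and of the members 0 passed. The median log2 ratio of the members was 0.02, against -0.003 for all genes.

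**Figure D5:**
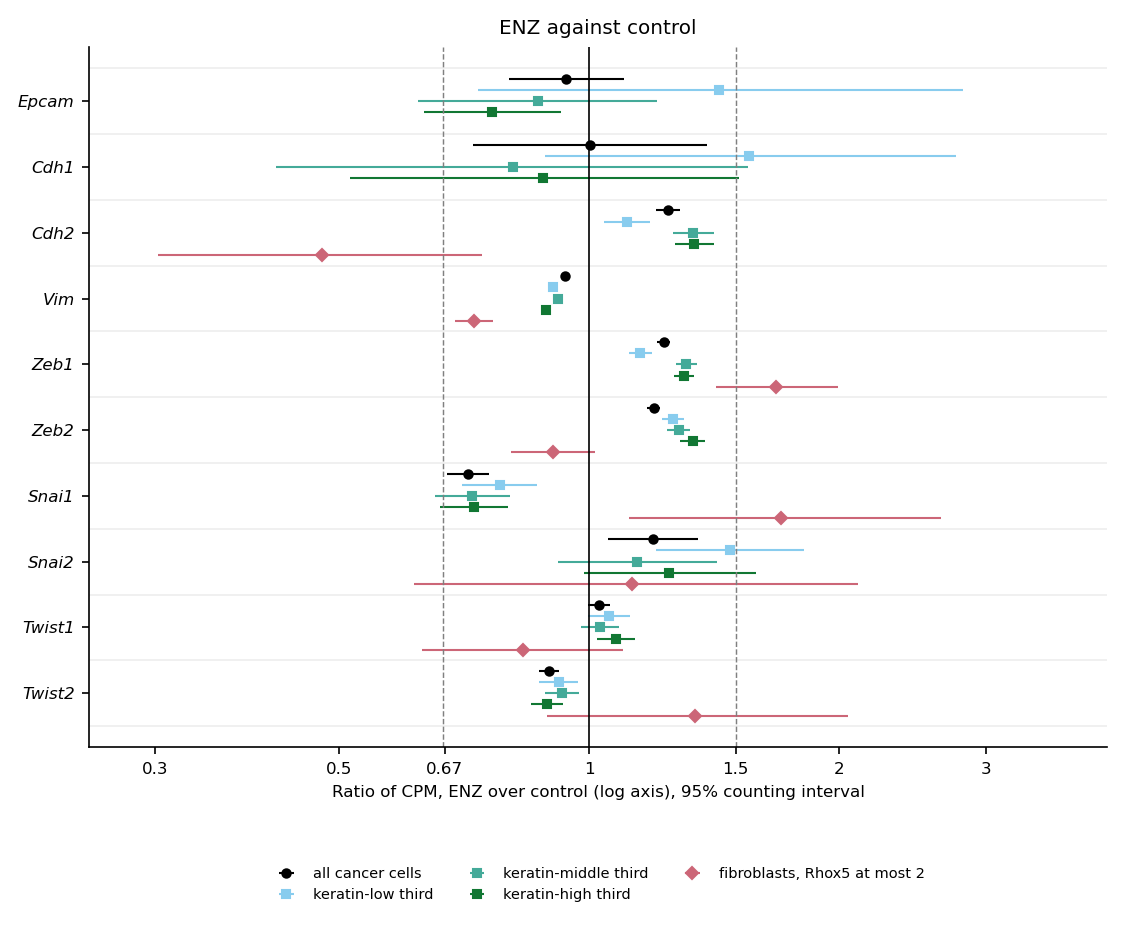
Ratio of CPM in ENZ over control (log axis) of each gene in all cancer cells (black), in the keratin-low, middle and high parts (squares) and in the wider fibroblast group (diamonds), with exact 95% counting intervals; dashed lines mark 1.5-fold, and points with under 10 UMIs or with 0 UMIs in a group are left out. Snai1 lies at 0.715 in cancer cells and 1.70 in fibroblasts, and Cdh2 at 1.24 and 0.477.

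The third comparison set the cancer cells beside the fibroblasts of the same tumors. In the 14 and 9 fibroblasts outside the cancer rule, 8 members could be tested and 0 passed the fold in both libraries, against 42.9% of 9056 genes, 19.6% higher and 23.3% lower. Single cells weighed heavily there. Zeb2 was 4.30-fold above cancer cells in control, as 32% of genes were past the fold on that side, and 57 of its 150 UMIs lay in 1 cell, and without that cell its level was 598 CPM in place of 876 CPM. In ENZ its ratio was 1.06. The neutrophil gene S100a9 was at 771 CPM in those 14 cells, and 1 barcode held 108 UMIs of S100a8 and S100a9.

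The wider group gave more counts. Its 34 control and 56 ENZ barcodes that also met the rule for cancer cells were taken out of the cancer cells for these ratios. Zeb2 and Snai2 were higher in fibroblasts than in cancer cells and Twist2 lower, in both libraries, where 45.1% of 12985 genes passed, 19.2% higher and 25.9% lower. Zeb2 had ratios of 2.97 and 2.25, Snai2 of 5.23 and 4.97, and Twist2 of 0.428 and 0.642. Zeb2 and Snai2 were thus on the side of fibroblasts here and on the keratin-low side within cancer cells. Twist2, and Cdh2 in ENZ, were lower in fibroblasts but on the keratin-low side within cancer cells, short of the fold. Zeb2 was higher still in macrophages, so its side is not particular to fibroblasts. Vim, the textbook marker of mesenchymal cells, had ratios of 1.39 and 1.08 and did not pass. Zeb1 was at 0.994 and 1.36, Snai1 at 1.43 and 3.47, Twist1 at 1.52 and 1.23, and Cdh2 at 1.001 and 0.382. For background, 31 of the 36 mesenchymal genes, Lum of the fibroblast rule among them, were higher in these fibroblasts and 1, S100a4, was lower. Dcn, used by the rule, was at 2773 and 2438 CPM.

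Within fibroblasts the ENZ and control libraries were compared last. In the 9 and 14 cells 3 members could be tested, of which Zeb1 was higher in ENZ at 1.99 and Zeb2 lower at 0.295, where 38.1% of 959 genes passed, 16.4% higher and 21.7% lower. Single cells weighed on both. Without the control cell that held 57 Zeb2 UMIs the ratio was 0.433 (0.282 to 0.650). Without the ENZ cell that held 18 of the 46 Zeb1 UMIs the Zeb1 ratio was 1.40 (0.812 to 2.42), no longer past the fold. With every barcode of at least 10 UMIs over Dcn, Lum and Dpt outside the cancer cells, Zeb1 was at 1.16 and Zeb2 at 1.39, on the other side of 1. In the wider group Zeb1 was at 1.68 (1.42 to 1.99) and Snai1 at 1.70 (1.11 to 2.65), both past the fold, and Cdh2 was lower at 0.477 (0.303 to 0.744), where 15.9% of 5869 genes passed, 8.21% higher and 7.67% lower. Zeb2 was at 0.904 there and Vim at 0.726. Zeb1 was on the ENZ side in cancer cells, in both fibroblast groups and in each keratin part. These groups come from the same libraries and share cells, so they are not separate observations.

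The genes with patterns most like Epcam, Vim and Zeb1 were sought over 18 groups of cells, the 3 keratin parts, fibroblasts and 5 other classes of each library, among 13778 genes. For Epcam they were Plekha2 (Pearson r of log2 levels 0.930), Ahsa1 (0.911), Papolg (0.899), St13 (0.894) and Sult2b1 (0.890). Epcam had 0 UMIs in 6 of the 18 groups, and its highest level, 119 CPM in ENZ B cells, rested on 4 UMIs, so its list depends largely on groups in which it was hardly measured. For Vim they were Nr2f2 (0.958), Lurap1l (0.955), Bok (0.955), Vangl1 (0.954) and Akap1 (0.953). For Zeb1 they were Utrn (0.874), Dock9 (0.851), Yes1 (0.825), Ets1 (0.824) and Myh9 (0.821). The groups share libraries and differ in depth, and these values are descriptions.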

How the data were processed

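The authors sequenced single cells of RM-1 tumors, and the deposited files hold unnormalized UMI counts, gene by barcode, of a control and an ENZ library, which the labels give as a 10x Genomics 3' v2 protocol. The submitters' processing notes name Cell Ranger 2.1.1 and mm10, and the file headers name Cell Ranger 7.2.0. More barcodes were listed than that protocol has, and whether intronic reads were counted was not given in the sources used here. Unused per-sample columns numbered 0. From the deposited counts, cells were chosen by the marker rules given with the results, no doublet caller was run, and UMIs were summed per gene over the cells of a group and scaled to CPM. T cells, B cells and neutrophils needed 3 UMIs of their markers and macrophages and endothelial cells 5. Levels had exact Poisson intervals, ratios exact conditional binomial intervals and shares Clopper-Pearson intervals (Python 3.11.15, numpy 2.4.6, scipy 1.17.1, pandas 2.3.3), and the ratio step was tested on simulated data. Shares of cells were taken after thinning to 8000 UMIs. Positions are from GENCODE M21, in which 32158 of 32285 gene IDs were found. The members, gene lists and cell rules were chosen with earlier results of these data known. Named were the 10 members, of each list the genes past the fold with the most UMIs (up to 4) and any count of 5 or fewer, and the 5 genes most like Epcam, Vim and Zeb1. Alternatives changed the scaling, denominators, filters, thresholds and cell rules; the wider fibroblast group, the removal of stromal barcodes, the matching on UMIs, the equal weights of keratin parts and the removal of single cells rich in Cdh1, Cdh2, Zeb1 or Zeb2 were added after seeing the data.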

Additional observations from a re-analysis of the deposited data

Results flagged for a closer look

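In 3 genes the ENZ over control ratio lay on opposite sides of 1 in cancer cells and in at least 1 fibroblast group, with counting intervals that left out 1. With 1 library per condition the difference was not tested. Cdh2 was at 1.24 (1.20 to 1.29) in cancer cells, while fibroblasts outside the cancer rule gave 0 UMIs in ENZ and 12 in control, a ratio of 0 with an upper limit of 0.483, or of 0.804 without the barcode that held 5 of the 12, and the wider fibroblast group gave 36 and 52 UMIs, a ratio of 0.477 (0.303 to 0.744). Zeb2 was at 1.20 (1.17 to 1.22) in cancer cells and 0.295 (0.196 to 0.433) in the fibroblasts outside the cancer rule, where 38% of the control UMIs lay in 1 cell, and at 0.904 in the wider group. With every barcode of at least 10 UMIs over Dcn, Lum and Dpt outside the cancer cells, Zeb2 was at 1.39, the side of cancer cells. Snai1 was at 0.715 (0.675 to 0.757) in cancer cells and 1.70 (1.11 to 2.65) in the wider group, on 79 and 32 UMIs.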

How the results depend on the processing

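No paired analysis was possible because a single library stands for control and a single one for ENZ, and none could be left out. Between ENZ and control in cancer cells, 0 members passed in every setting except 2, with 1 (Snai1) at a fold limit below 1.5 and 2 (Cdh2 and Twist1) under the marker filter for doublets, which left 50 and 67 cells and 6 testable members. Cdh2, Vim, Zeb1 and Zeb2 kept their direction in all 15 settings that gave a value. Epcam kept its direction in 11 of 14, Cdh1 in 8 of 14, Twist1 in 12 of 15 and Twist2 in 14 of 15. Between keratin-low and keratin-high cells, 3 to 6 members passed in every setting but the doublet filter, under which 3 could be tested and 1 (Zeb2) passed. For this comparison 19.4% of all genes passed in the main run, 15% without stromal barcodes and 13.6% with cells matched on UMIs. Such shares are not printed for most other settings, so the member counts in this section are descriptions and support nothing about the members. Between fibroblasts and cancer cells the count moved from 0 to 1 with scaling by the median of ratios, with mitochondrial and ribosomal genes left out of the totals and with the deepest 5% of cells left out (Twist2 each time), to 1 with the doublet filter (Zeb2) and with fibroblasts of at least 8000 UMIs (Snai2), to 2 with every barcode that met the fibroblast rule (Zeb2 and Twist2) and at the lower fold limit (Snai2 and Twist2), and to 3 in the wider group. Between ENZ and control fibroblasts the count moved from 2 to 1 with the mean of cell levels and at 2-fold (Zeb2), and to 5 with no limit on low counts. Of ratios past the fold, log2 ratios of fibroblasts over cancer cells that reversed were those of Twist1 in control after thinning (-0.22) and in ENZ in the wider group (0.30), of Twist2 in ENZ under the doublet filter (0.17) and of Snai1 in control in the wider group (0.51), as did that of Zeb2 between ENZ and control with every barcode that met the fibroblast rule (0.48). The cause was not tested. Ratios short of the fold turned more often. In control fibroblasts over cancer cells, Cdh2 kept its direction in 12 of 16 settings, Vim and Zeb1 in 14 of 17 each and Snai2 in 12 of 14, and in ENZ Vim in 14 of 17, Zeb1 in 15 of 17, Zeb2 in 11 of 17 and Snai2 in 13 of 14. Scaling shifted the log2 ratios of the 14 and 9 fibroblasts to cancer cells by 0.58 and 0.81. Depth limits Epcam, Cdh1 and Snai2 in cancer cells and all members except Vim in fibroblasts.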
